A study of Mus musculus with 10 samples.

Results

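The genes described are those of the cytosolic ribosomal proteins, 43 of them, each taken from an array row that names that gene alone. They were chosen by symbol (Rpl and Rps followed by a number, with Rplp0 and Rpsa), leaving out pseudogene symbols ending in ps and the S6 kinases. Of the 72688 rows of the table, 32814 transcript rows name at least 1 gene and were tested, and 49 of these name 1 ribosomal protein gene. For the 5 genes with several rows the row of highest mean was used, which gave 25 large subunit and 18 small subunit genes. A further 41 ribosomal protein symbols, among them Rplp1, Rplp2, Rpl5 and Rps6, occur only in the 53 rows that name several genes, and no value is given for them by name.

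Isolated pancreatic islets of male C57BL/6 mice (C57Bl/6J in the study's methods) aged 10 weeks were hybridised to 10 one-colour Affymetrix arrays, 5 from ZT20 islets and 5 from ZT8 islets (titled CT20 and CT8). ZT counts hours from lights on. By the study's methods, mice of the ZT20 group lived under an inverted light cycle and those of the ZT8 group under a normal one, so that both were killed at the same clock time and their islets cultured for 24 h (a further label field says overnight). The sample labels instead place time 0 at 7 am for both groups and do not mention the inverted cycle. Taking the methods as they stand, time of day and housing cycle cannot be told apart. The study chose these times because Nr1d1, which encodes the clock repressor REV-ERB alpha, is near its trough at ZT20 and its peak at ZT8, and the question here is whether the genes of the ribosome differed between them. The labels call the arrays biological replicates. RNA was taken from pooled islets, and fewer cells of a type and less RNA per cell cannot be told apart in it.

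A cytosolic ribosome has a small subunit, which reads the mRNA, and a large subunit, which joins amino acids and releases the new chain through an exit tunnel. Its protein genes are expressed in every cell, and beta cells rely on them for the large output of insulin. Most of their mRNAs are TOP mRNAs, which start with a C followed by an unbroken run of pyrimidines and are translated under the control of mTORC1 and LARP1. An array measures mRNA level and not this step.

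To show the pyrimidine content around the annotated starts of some members, below are 30 bases from RefSeq (GRCm38.p6), 5′ to 3′ on the gene's strand, with the annotated first transcribed base at position 16 and the longest run of C and T in capitals. The first 6 belong to genes whose arrays did not overlap between ZT20 and ZT8, and the last 2 to genes with differences of -0.01 and 0.02.
Rpl22l1, chr3:28805493-28805522 (+): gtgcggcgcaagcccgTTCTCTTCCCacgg
Rpl39, chrX:37085208-37085237 (-): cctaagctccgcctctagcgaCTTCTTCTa
Rpl4, chr9:64173372-64173401 (+): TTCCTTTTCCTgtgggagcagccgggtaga
Rps4x, chrX:102189377-102189406 (-): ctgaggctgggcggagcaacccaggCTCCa
Rps26, chr10:128626492-128626521 (-): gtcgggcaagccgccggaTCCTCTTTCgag
Rps7, chr12:28635939-28635968 (-): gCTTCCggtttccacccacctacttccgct
Rplp0, chr5:115559452-115559481 (+): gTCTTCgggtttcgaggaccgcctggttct
Rps18, chr17:33955651-33955680 (-): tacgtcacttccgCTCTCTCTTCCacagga
The run is 10 bases long in Rpl22l1, the member with the lowest difference, and 11 in Rps18, one of the 4 members above 0, and no more than 5 bases in Rps4x, Rps7 and Rplp0. RefSeq start windows were at hand for 35 of the 43 members, and 15 of the 35 genes (42.9%) held a run of at least 8 pyrimidines within 15 bases of a start, against 14.0% of 17492 protein-coding genes. On the other strand 2.3% of the members' starts held such a run, against 12.8% of protein-coding starts. The annotated first base can lie a few bases from the real one, so the runs are described and not read as TOP motifs.

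In the promoter windows (250 bases before the start to 50 after it, both strands) CCGGAAG, the core of sites bound by the ETS factor GABP, stood in 16 of 35 member genes (45.7%), against 12.9% of protein-coding genes. AAGATGGC, a core bound by YY1, stood in 5.7%, against 3.6%. CACGTG, the E-box that CLOCK and BMAL1 bind, stood in 5.7% of member genes, against 8.9% of protein-coding genes, and TATAAA in 17.1%, against 14.8%. Among the members with such a window and a row on their own chromosome (8 and 21 genes), the pyrimidine run stood in 5 of the 8 with an unadjusted p under 0.05 in the ZT20 to ZT8 comparison and in 7 of the other 21. CCGGAAG stood in 4 of the 8 and 9 of the 21. These are descriptions of letters, and no match says only that the letters are not in the window.

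Across all members the differences were small and mostly on the lower side at ZT20, a lean that depends on how the arrays are scaled. At an adjusted p under 0.05 (limma, Benjamini-Hochberg over all 32814 rows) 1 of 43 members, Rpl22l1, was lower at ZT20, where 0.567% of all rows were called lower, and none was higher, where 0.177% of all rows were called higher. At an unadjusted p under 0.05, 12 members were lower, against 8.37% of all rows, and none was higher, against 10.2% of all rows. The groups of arrays did not overlap in 9 members, all lower at ZT20, against 3.39% of all rows. Bright rows had larger shares than all rows. In the brightest 20% of rows 1412 of 6563 were lower at an unadjusted p under 0.05 and 732 were lower without overlap. Of the 27 members among these bright rows, 10 were lower at such a p and 8 were lower without overlap. The difference, ZT20 minus ZT8 on the log2 scale, was below 0 in 39 members (90.7%), against 38.1% of all rows, with a median of -0.06 and a range from -0.33 to 0.09. Over all rows the median was 0.03.

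**Figure D1:**
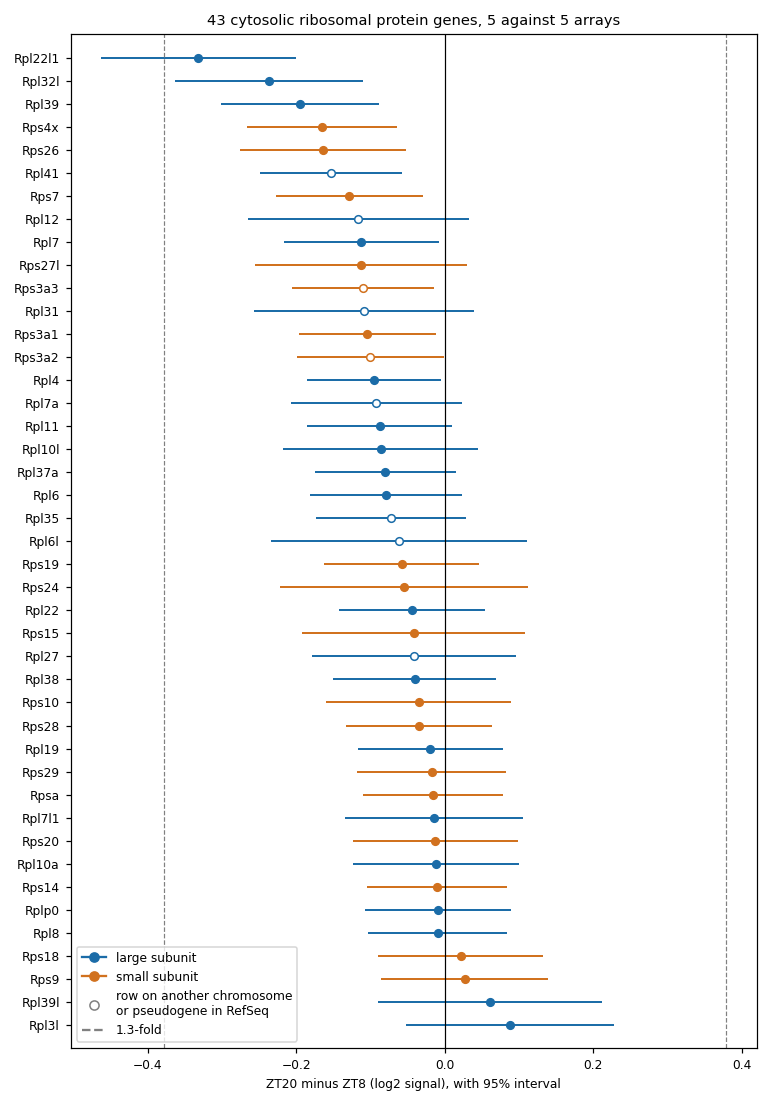
The difference of each of the 43 members, ZT20 minus ZT8 in log2 signal, is plotted as a point with its 95% interval from limma, ordered from lowest to highest, in blue for large and orange for small subunit genes. Open points are rows on another chromosome or RefSeq pseudogenes, and only the interval of Rpl22l1 reaches past the dashed line at 1.3-fold.

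The bounds on these differences were narrow. The 95% interval lay within 1.3-fold in either direction for 42 of the 43 members, the exception being Rpl22l1. The same held for 29665 of the 32814 rows. The median residual SD was 0.059 for members and 0.10 for all rows, on the log2 scale.

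Rpl22l1 encodes a paralog of the large subunit protein RPL22 whose expression is held down by RPL22 in mice. Its log2 signal was 9.40, 9.11, 9.34, 9.27 and 9.20 on the ZT20 arrays and 9.67, 9.66, 9.54, 9.54 and 9.57 on the ZT8 arrays. Every ZT20 array lay below every ZT8 array. The means were 9.27 ± 0.11 at ZT20 and 9.60 ± 0.064 at ZT8 (SD, n = 5 each), a difference of -0.33 ± 0.060 (SE; 95% interval -0.46 to -0.20; limma adjusted p = 0.043), a 1.26-fold lower level at ZT20. The exact two-sided permutation p of 0.0079 is the smallest that 5 against 5 arrays can give. The call is a marginal one, since the adjusted p ran from 0.022 to 0.118 as single arrays were left out and stayed under 0.05 only without ZT20 replicate 1. The limma adjusted p was 0.066 after quantile normalization, where the difference was -0.27, and 0.062 with the replicate number as a block.

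Rpl22 itself, which encodes the common form, had 8.10, 8.04, 8.03, 8.09 and 7.98 at ZT20 and 8.17, 8.07, 8.08, 8.06 and 8.07 at ZT8. These ranges overlap, and the difference was -0.04 (limma adjusted p = 0.60). Within each array Rpl22l1 minus Rpl22 was 1.22 ± 0.098 at ZT20 and 1.51 ± 0.049 at ZT8 (log2 units, SD, n = 5 each). These within-array differences did not overlap between the groups, and they do not depend on a shift that moves both rows of an array alike. The same quantity was higher at ZT20 for both other paralog pairs with rows of their own, at -2.30 ± 0.17 at ZT20 and -2.56 ± 0.067 at ZT8 for Rpl39l minus Rpl39, and at 1.72 ± 0.070 at ZT20 and 1.63 ± 0.056 at ZT8 for Rpl7l1 minus Rpl7, with overlap in each. These differences were taken after the values had been seen and are given with no test. Rpl39l was dim, at 4.59 to 5.01 over the arrays, where the background control rows averaged 4.07 to 4.33 and were higher at ZT20. The part of background in the Rpl39l pair was not tested.

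Among the other large subunit genes Rpl32l, Rpl39, Rpl41 and Rpl4 also did not overlap. Rpl32l is a protein-coding gene in RefSeq that resembles Rpl32. It had 9.77, 9.55, 9.63, 9.69 and 9.64 at ZT20 and 9.98, 10.01, 9.85, 9.85 and 9.79 at ZT8, with the highest ZT20 array just under the lowest ZT8 array. The difference was -0.24 ± 0.058 (SE; limma adjusted p = 0.074). Rpl39, one of the smallest ribosomal proteins, lines the exit tunnel. Its signal was 7.13, 7.08, 7.23, 7.07 and 7.05 at ZT20 and 7.32, 7.36, 7.32, 7.27 and 7.25 at ZT8, again without overlap, and the difference was -0.19 ± 0.048 (SE; limma adjusted p = 0.076). Both genes passed with array weights, with centred arrays and with only the rows above the median level, with limma adjusted p from 0.0363 to 0.0495. In the other 18 alternatives neither was called. With single arrays left out the limma adjusted p ran from 0.057 to 0.151 for Rpl32l and from 0.061 to 0.171 for Rpl39. After quantile normalization it was 0.20 for Rpl32l and 0.068 for Rpl39.

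Rpl41, a very short basic protein, differed by -0.15 ± 0.043 (SE; limma adjusted p = 0.10), with 12.71 to 12.83 at ZT20 and 12.89 to 12.96 at ZT8. That row, however, lies on chromosome 14 by its ID, while RefSeq places Rpl41 on chromosome 10. The Rpl41 row on chromosome 10 had 8.73 to 9.09 at ZT20 and 8.88 to 8.99 at ZT8 and differed by -0.00 (limma adjusted p = 0.99), so the difference belongs to 1 row of this gene and not to the other. Rpl4 had 12.35 to 12.42 at ZT20 and 12.44 to 12.51 at ZT8, a difference of -0.10 (limma adjusted p = 0.24). Rpl7 overlapped, with 7.47 to 7.63 at ZT20 and 7.60 to 7.71 at ZT8 and a difference of -0.11 (limma adjusted p = 0.24).

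Among small subunit genes Rps4x, Rps26, Rps7 and Rps3a1 did not overlap. Rps4x is the X-linked gene of the protein S4. It had 11.08, 10.93, 11.09, 11.07 and 11.01 at ZT20 and 11.22, 11.16, 11.21, 11.22 and 11.19 at ZT8. The ZT20 array of replicate 2 was lowest, and every ZT20 array lay below every ZT8 array. The difference was -0.17 ± 0.046 (SE; limma adjusted p = 0.098). Rps26, whose protein lies at the mRNA exit channel, had 11.06 to 11.23 at ZT20 and 11.28 to 11.43 at ZT8, a difference of -0.16 ± 0.051 (SE; limma adjusted p = 0.13). Of its other rows, both on other chromosomes by their IDs, the first had 9.84 to 10.15 at ZT20 and 10.17 to 10.33 at ZT8 (difference -0.19, no overlap) and the second 4.10 to 4.51 at ZT20 and 3.78 to 4.29 at ZT8 (difference 0.18).

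Rps7, whose protein is needed for the maturation of small subunit rRNA, had 10.31, 10.22, 10.38, 10.22 and 10.28 at ZT20 and 10.40, 10.41, 10.41, 10.43 and 10.41 at ZT8. The ZT8 arrays were nearly level, with an SD of 0.011, and the ZT20 arrays were spread below them with an SD of 0.067. The difference was -0.13 ± 0.045 (SE; limma adjusted p = 0.17). Rps3a1 differed by -0.10, and its RefSeq pseudogene copies Rps3a2 and Rps3a3, which are also members by symbol, by -0.10 and -0.11. Rows of such near-identical copies can share signal, so these 3 values are not separate observations. After quantile normalization the differences of the 4 small subunit genes without overlap shrank to -0.06 for Rps4x, -0.05 for Rps26 and -0.04 for Rps7, and that of Rps3a1 turned to 0.01.

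The remaining members overlapped between the groups and none was called. Among large subunit genes Rpl12, whose protein sits at the base of the stalk, differed by -0.12, Rpl31, at the rim of the exit tunnel, by -0.11, Rpl7a by -0.09, Rpl37a and Rpl6 by -0.08 and the Rpl6 pseudogene Rpl6l by -0.06. Rpl27 and Rpl38 differed by -0.04, Rpl19 by -0.02, and Rpl10a and Rpl8, which encodes a protein near the peptidyl transferase centre, by -0.01. Among small subunit genes Rps19, the gene most often mutated in human Diamond-Blackfan anaemia, differed by -0.06, Rps24 by -0.05, Rps15 and Rps10 by -0.04, Rps28 by -0.03, Rps29 by -0.02, Rps20 and Rps14 by -0.01, and Rps18 and Rps9 by 0.02 and 0.03.

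Spread between arrays differed among these genes. Rps24 had 8.87 to 9.18 at ZT20 and 8.94 to 9.25 at ZT8, and Rpl31 had 9.14 to 9.36 at ZT20 and 9.20 to 9.52 at ZT8, so that their 95% intervals reached from -0.22 to 0.11 and from -0.26 to 0.04. Rpl8 was among the tightest, with 11.92 to 12.04 at ZT20 and 11.99 to 12.02 at ZT8 and an interval from -0.10 to 0.08. Even the wider of these intervals lay within 1.3-fold.

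**Figure D2:**
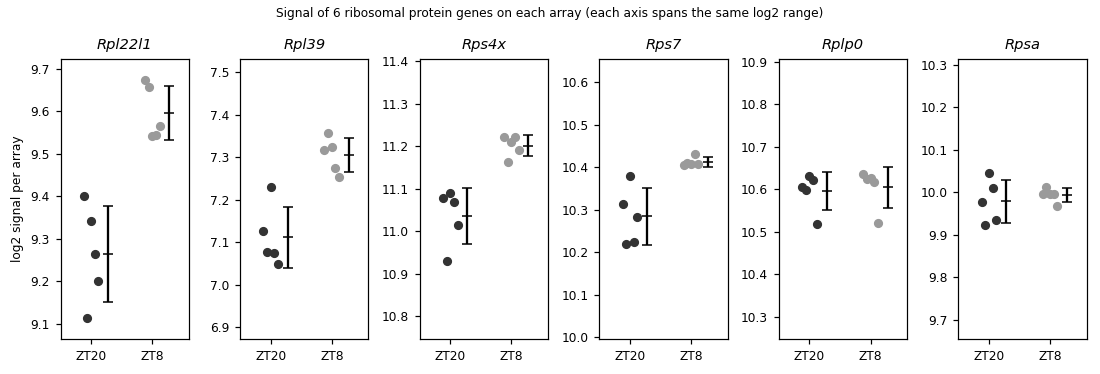
Log2 signal on each array is plotted for 6 genes, ZT20 left and ZT8 right, as points with mean and SD (n = 5 each), every axis spanning the same log2 range. The groups do not overlap for Rpl22l1, Rpl39, Rps4x and Rps7 and overlap for Rplp0 and Rpsa.

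Rplp0, which forms the base of the stalk that recruits translation factors and was the qRT-PCR reference gene of the study (36B4), had 10.61, 10.60, 10.63, 10.62 and 10.52 at ZT20 and 10.64, 10.62, 10.63, 10.62 and 10.52 at ZT8. Replicate 5 was the lowest array in both groups and the others lay together. The means were 10.60 ± 0.045 at ZT20 and 10.60 ± 0.048 at ZT8 (SD, n = 5 each), and the difference was -0.01, with a 95% interval from -0.11 to 0.09 (limma adjusted p = 0.92; exact permutation p = 0.56). The interval is that of the deposited scale, and the difference was -0.06 with arrays centred on their medians and 0.09 after quantile normalization.

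Of the other genes with roles beyond the ribosome, Rpl11, which with RPL5 and 5S rRNA binds MDM2 and restrains it, had 7.10 to 7.25 at ZT20 and 7.24 to 7.28 at ZT8. Only ZT20 replicate 2 reached into the ZT8 range, and the difference was -0.09 (limma adjusted p = 0.31). Rpsa, the small subunit protein also known as the laminin receptor precursor, had 9.92 to 10.05 at ZT20 and 9.97 to 10.01 at ZT8, a difference of -0.02 (limma adjusted p = 0.86) that was 0.06 after quantile normalization. The 7 measured genes of the small subunit head (of 14 listed) differed by -0.06 to 0.02 and none had an unadjusted p under 0.05.

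The other paralogs of ribosomal proteins gave no call. Rpl3l, a paralog of Rpl3 found mainly in muscle, had 5.40 to 5.65 at ZT20 and 5.25 to 5.49 at ZT8 and the highest difference of all members, 0.09 (limma adjusted p = 0.46). Rpl10l, a testis-expressed paralog of Rpl10, differed by -0.09 (limma adjusted p = 0.44), and Rps27l, a p53-responsive paralog of Rps27, by -0.11 (limma adjusted p = 0.37). Rpl39l, a paralog of Rpl39 found mainly in testis, had 4.59 to 5.01 at ZT20 and 4.67 to 4.81 at ZT8, a difference of 0.06 (limma adjusted p = 0.65). Rpl7l1 differed by -0.01 (limma adjusted p = 0.90), a sign that turned after quantile normalization and without ZT20 replicate 1 or 5.

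Both subunits leaned to the lower side at ZT20 on the deposited scale, and their medians lay near 0 after quantile normalization (-0.00 for both). Of the 25 large subunit genes 23 lay below 0, 6 had an unadjusted p under 0.05 and 5 did not overlap, with a median of -0.08. Over all rows the shares were 38.1% below 0, 8.37% lower at an unadjusted p under 0.05 and 3.39% lower without overlap. In the brightest 20% of rows 71.0% lay below 0, 1412 of 6563 were lower at such a p and 732 were lower without overlap. Of the 18 small subunit genes 16 lay below 0, 6 had an unadjusted p under 0.05 and 4 did not overlap, with a median of -0.05. The small subunit count at an unadjusted p under 0.05 includes Rps3a1 and its pseudogene copies, and over the 16 protein-coding small subunit genes 14 lay below 0 and 4 had such a p, with a median of -0.04. The difference of the medians, large minus small, was -0.03 as deposited and 0.00 after quantile normalization. Within each array the mean of the large minus that of the small subunit genes was -0.18 ± 0.023 at ZT20 and -0.16 ± 0.039 at ZT8 (log2 units, SD, n = 5 each), and the ranges overlapped.

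Array by array, the mean log2 signal of the 43 members was 9.59, 9.53, 9.61, 9.57 and 9.50 at ZT20 and 9.64, 9.65, 9.63, 9.65 and 9.58 at ZT8. ZT20 replicate 5 was the lowest, with 2 of 43 members above their own mean over the 10 arrays, and ZT8 replicate 4 the highest, with 39. ZT8 replicate 5 was the lowest of its group, under ZT20 replicates 1 and 3, so that the groups overlapped in this mean. Without ZT20 replicate 5, 32 of 43 members lay below 0.

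**Figure D3:**
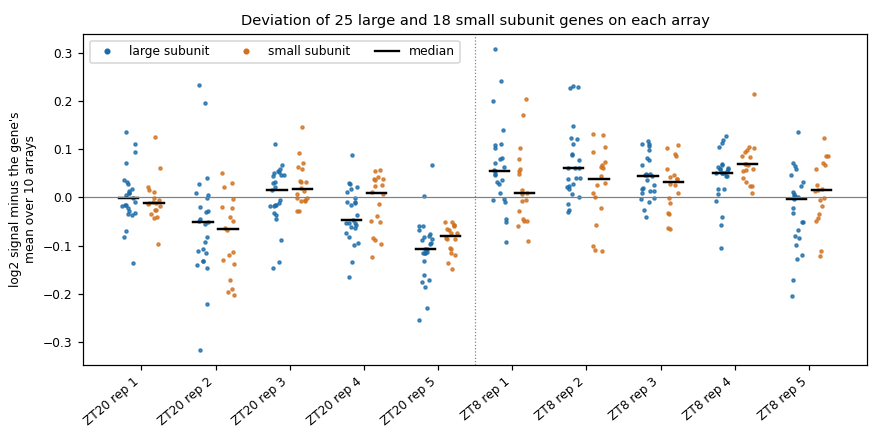
Each point is the log2 signal of 1 gene on 1 array minus its mean over the 10 arrays, blue for 25 large and orange for 18 small subunit genes, with black bars at the medians, ZT20 arrays left and ZT8 arrays right. Over all members replicate 5 is the lowest array of each group.

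Signal level and background also differed between the groups. In the brightest 20% of all rows (6563) the median difference was -0.05 and 71.0% of rows lay below 0. All 27 members among these bright rows lay below 0, with a median of -0.09, and 12 of the 16 other members did, with a median of -0.03. Opposite to the members, the 23 background control rows were higher at ZT20. They averaged 4.24 to 4.33 at ZT20 and 4.07 to 4.20 at ZT8 without overlap, and the median of all tested rows was 6.23 to 6.35 at ZT20 and 6.17 to 6.27 at ZT8. The part of signal level and background in the members' lean was not tested.

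Scaling changed the members' lean. With each array centred on its median, 41 of 43 members lay below 0 with a median of -0.11, against 56.2% of all rows. Then 3 members were called lower (Rpl22l1, Rpl32l and Rpl39), where 539 of all 32814 rows were called lower, against 186 as deposited. After quantile normalization 23 of 43 lay below 0 with a median of -0.00, against 45.4% of all rows. None was called by limma, where 37 of the 32814 rows were called lower and 15 higher. At an unadjusted p under 0.05 stood 8 members, and they lay on both sides of 0. Among these 8, Rpl8 at 0.10 and Rps29 at 0.09 were higher at ZT20. Centring moves every row alike and leaves the order of the members as it was. Quantile normalization moved members by unequal amounts and turned 16 of them above 0, with Rpl8 at 0.10 as the highest, while Rpl22l1 at -0.27, Rpl39 at -0.21 and Rpl32l at -0.17 were the lowest.

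**Figure D4:**
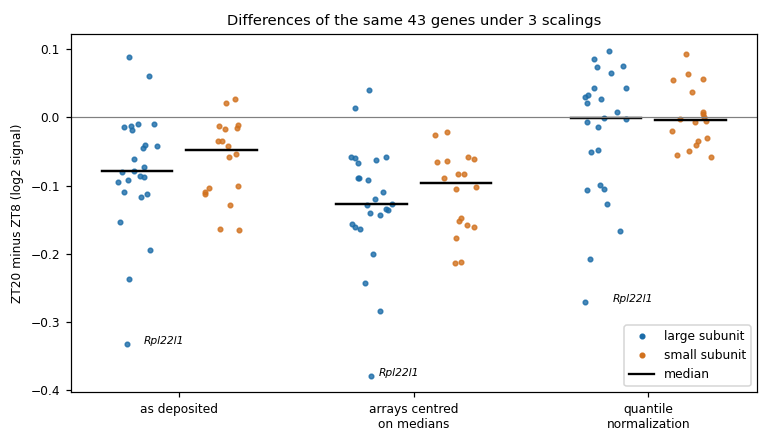
The differences of the 43 members, ZT20 minus ZT8 in log2 signal, are plotted under 3 scalings, blue for large and orange for small subunit genes, with medians as black bars. The members' median lies at -0.06 as deposited, -0.11 with centred arrays and -0.00 after quantile normalization, with Rpl22l1 lowest in each.

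Row identity also bore on single members. By its ID the row lies on the RefSeq chromosome of its gene for 37 members and on another chromosome for 6 (Rpl12, Rpl27, Rpl31, Rpl35, Rpl41 and Rpl7a), and 3 of the 37 are pseudogenes in RefSeq. Among all rows that could be compared 99.6% lay on their gene's chromosome. With only own-chromosome rows of protein-coding genes, 38 genes gave 34 below 0, 9 without overlap, 1 call (Rpl22l1) and a median of -0.04. For Rpl35 the own-chromosome row had 10.95 to 11.03 at ZT20 and 11.04 to 11.19 at ZT8, a difference of -0.13 without overlap, against -0.07 with overlap for the other row. The 53 rows that name a ribosomal protein gene together with other genes had 50 below 0, none called, 14 with an unadjusted p under 0.05 on the lower side and a median of -0.07. The 200 rows of ribosomal protein pseudogenes had 192 below 0, 12 called lower and a median of -0.16. Of these, 142 were lower and 2 higher at an unadjusted p under 0.05, and 84 did not overlap, so the lean was not particular to the members. Over all rows 38.1% lay below 0 and 0.567% were called lower. A further all-row share of 8.37% was lower at an unadjusted p under 0.05, and 3.39% lower without overlap.

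Genes that work with ribosomal proteins were counted from lists written for this purpose. Of 23 listed mRNAs of elongation factors and other TOP genes 18 were measured, and none was called, with 16 below 0, a median of -0.09 and 4 at an unadjusted p under 0.05, all lower at ZT20. Over all rows 38.1% lay below 0 and 8.37% were lower at such a p, and in the brightest 20% of rows 71.0% lay below 0 and 1412 of 6563 were lower at such a p. Eif3e, a subunit of initiation factor eIF3, averaged 8.98 ± 0.063 at ZT20 and 9.17 ± 0.046 at ZT8 (limma adjusted p = 0.076), and Naca, which shields nascent chains, 9.70 ± 0.038 at ZT20 and 9.86 ± 0.023 at ZT8 (limma adjusted p = 0.078; SD, n = 5 each). Neither overlapped. Fau, which encodes the small subunit protein S30 as a fusion with a ubiquitin-like protein, differed by -0.02 (limma adjusted p = 0.86).

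Of 35 listed ribosome biogenesis factors 33 were measured, with 1 called lower and none higher, 8 lower and 2 higher at an unadjusted p under 0.05, and a median of -0.03. Over all rows 0.567% were called lower, 8.37% were lower and 10.2% higher at an unadjusted p under 0.05. The called gene was Nmd3, the adaptor that exports the large subunit from the nucleus, with 8.92 ± 0.10 at ZT20 and 9.20 ± 0.061 at ZT8 (SD, n = 5 each), a difference of -0.28 (limma adjusted p = 0.048). Ncl, nucleolin, differed by -0.21 (limma adjusted p = 0.080). On the higher side stood Rrs1 at 0.21 (limma adjusted p = 0.19) and Rrp12 at 0.14 (limma adjusted p = 0.13), so the list held genes on both sides.

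Of 18 listed regulators of mTORC1 and TOP mRNAs 16 were measured and none was called, with 2 lower and none higher at an unadjusted p under 0.05 and a median of -0.03. Eif4e, the cap-binding protein, differed by -0.20 (limma adjusted p = 0.080) and Larp4, a poly(A)-tail binding protein, by -0.17 (limma adjusted p = 0.17). Mtor differed by 0.01 and Larp1 by -0.05. All 7 promoter factors listed were measured and none was called. All 7 lay below 0, with a median of -0.08, and 2 were lower at an unadjusted p under 0.05. These were Gabpa at -0.14 (limma adjusted p = 0.20) and Yy1 at -0.12 (limma adjusted p = 0.19). The 74 genes of the mitochondrial ribosome had 55 below 0, none called, and a median of -0.04. For comparison, 38.1% of all rows and 71% of the brightest 20% of rows lay below 0. At an unadjusted p under 0.05, 8.37% of all rows were lower.

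As a check of the time labels, the clock genes differed in both directions. Nr1d1 was lower at ZT20, with a difference of -1.17 (7.56 to 8.14 at ZT20 and 8.80 to 9.08 at ZT8; limma adjusted p = 0.0012), and Arntl, which encodes BMAL1, was higher by 0.70 (limma adjusted p = 0.036). Ins2, the insulin gene that marks beta cells, stood at 13.19 ± 0.041 at ZT20 and 13.18 ± 0.050 at ZT8 (SD, n = 5 each). Of the 9 beta cell markers 7 lay below 0, with a median of -0.07, among them Slc2a2 at -0.25 and Slc30a8 at -0.24, and their mean level was 10.62 to 10.93 at ZT20 and 10.54 to 11.02 at ZT8. No marker of any of 8 cell types was called. All 4 endothelial, 4 stromal and 5 leukocyte markers lay above 0, with medians of 0.11, 0.17 and 0.14, and the mean level of the stromal markers was 7.81 to 8.21 at ZT20 and 7.65 to 8.05 at ZT8. The median levels of these 3 marker sets were 8.92, 7.80 and 5.85 in the same order. For comparison, 38.1% of all rows lay below 0, 18.5% of the dimmest 20% of rows and 71% of the brightest 20%. Of the 8 acinar markers 6 lay below 0, with a median of -0.14, and they averaged 10.58 to 11.44 at ZT20 and 10.57 to 11.53 at ZT8. Below 0 also lay 3 of 3 alpha, 2 of 3 delta and 2 of 4 duct cell markers. The part of these cell types in the ribosomal protein values was not tested.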

How the data were processed

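The authors deposited 1 table of log2 signals per transcript cluster, 72688 rows by 10 arrays. A heading in the study's supplement gives GCRMA for its list of differing genes, and whether the deposited table was normalized so is not stated there. Transcript clusters are not the rows of the array model that the study's methods name, and this conflict was not resolved. Affymetrix Expression Console is the tool in the submitters' notes (no version), and the genome build used was not given in the sources used here. Signals spanned 1.66 to 13.71 with 0 missing, every column had a sample, and they were used as given. Each row naming at least 1 gene was fitted with limma 3.58.1 (lmFit and eBayes, R 4.3.3), two-sided, with Benjamini-Hochberg adjustment over 32814 rows, and a call is an adjusted p under 0.05. Single genes were also compared by exact permutation over the 252 splits of 10 arrays. P-values measure only the spread between these arrays, whose number limits precision. Members and lists were chosen with earlier results of these data known. Named are the called members, those of the largest differences at an unadjusted p under 0.05, a set chosen for their roles, members with an outlying array, and from each list the called genes and otherwise the pair of smallest p. The remaining members, given to account for all, and Fau, Rrs1, Rrp12, Mtor and Larp1 were added after their values were seen. The alternatives were array centring, quantile normalization, array weights, a trended and robust prior, the replicate block, the methods' t-test, other row sets, and each array left out. Restricting to own-chromosome rows and leaving out the lowest-weight array of each group were chosen after seeing the data. Sequences and chromosomes came from RefSeq (GRCm38.p6). The procedure was tested on simulated data. Python 3.11.15, pandas 2.3.3 and scipy 1.17.1 made the tables, and matplotlib 3.10.9 the figures.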

Additional observations from a re-analysis of the deposited data

Results flagged for a closer look

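In 7 of the 86 sets of 5 arrays (43 members in each group) 1 array lay apart from the other 4 by more than Dixon's limit of 0.71, where chance gives about 1 in 20. Of these 7 arrays, 3 were ZT8 replicate 5. Rplp0 was low on ZT20 replicate 5, at 10.52 with the others at 10.60 to 10.63, and low on ZT8 replicate 5, at 10.52 with the others at 10.62 to 10.64. Rpl10a was low on ZT8 replicate 5, at 8.09 with the others at 8.23 to 8.28, and Rpl38 was low on the same array, at 10.99 with the others at 11.10 to 11.14. Rpl22 was high on ZT8 replicate 1, at 8.17 with the others at 8.06 to 8.08. Rpl6 was low on ZT8 replicate 2, at 7.98 with the others at 8.05 to 8.08. Rps7 was high on ZT8 replicate 4, at 10.43 with the others at 10.40 to 10.41.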

How the results depend on the processing

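The number of members called lower at ZT20, 1 on the deposited values, was 3 with array weights, with arrays centred on their medians and with rows above the median level, 2 with a trended and robust prior, and 0 with all transcript rows, with quantile normalization, with the methods' t-test and with ZT20 replicate 2 and ZT8 replicate 1 left out together. With single arrays left out it ran from 0 to 1, and was 1 only without ZT20 replicate 1. No member was called higher under any of the 22 alternatives, where the whole table gave 1 to 598 rows lower and 0 to 232 higher. With the replicate number as a block 0 members were called, and 39 rows of the table lower and 12 higher, against 186 and 58 without it. Arrays of the same number correlated at -0.128 to 0.352 in their deviations. Those of replicates 1, 2 and 5 correlated best with their own number, and those of replicates 3 and 4 better with another. Whether the numbers pair the arrays is therefore not settled.

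The median over members was -0.1091 with centred arrays, -0.0028 after quantile normalization and -0.0896 to -0.0473 with single arrays left out. For the large subunit it was -0.1266, -0.0004 and -0.0937 to -0.0533 in the same order, and for the small subunit -0.0958, -0.0043 and -0.0723 to -0.0297. Large minus small was 0.0039 after quantile normalization and -0.0398 to -0.0122 with single arrays left out. Rplp0 turned to 0.0857 after quantile normalization and to 0.0095 without ZT20 replicate 5, with a range of -0.0307 to 0.0095 over single arrays left out. Rpsa turned to 0.0641 after quantile normalization, and Rpl7l1 to 0.0431 there, to 0.0015 without ZT20 replicate 1 and to 0.0108 without ZT20 replicate 5, over a range of -0.0442 to 0.0108 with single arrays left out. Over all 43 members 16 turned above 0 after quantile normalization, and 2 (Rps18 and Rps9) turned below 0 with arrays centred on their medians. The cause of these changes was not tested, and signal over background limits the dimmest members.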
